A study of Homo sapiens with 6 samples.

Results

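The genes of interest were the protein-coding genes of the count table whose symbols follow the pattern of an H1 gene with a number (such as H1-2) or of a numbered H2A, H2B, H3 or H4 cluster gene (such as H2BC5). Described here are 57 such genes among 21776, namely 6 of H1, 14 of H2A, 16 of H2B, 10 of H3 and 11 of H4. Of these, 56 belong to the histone gene clusters and follow DNA replication. H1-10 is matched by the symbol pattern but lies outside the clusters and is made independently of replication, so the name of replication-dependent clustered histone genes does not hold for it, and it is described separately.

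RNA sequencing compared SCC25 cells, an established human oral squamous cell carcinoma line with the genotype given as WT, after 12 h of hypoxia (1% O2, 5% CO2 and balanced N2) and after 12 h of normoxia (5% CO2 and air), with 3 libraries per condition. The line is the same in both conditions, and no labels state that the libraries of a condition came from separate cultures, so p-values measure the spread between these libraries, which may be technical. The columns of the count table carry only the tumour type (hnscc), the sample labels name SCC25, and a figure legend of the study names another oral carcinoma line, SCC9, so the line is given here as labelled and the conflict is not settled. The hypoxia libraries held 30186813, 36076088 and 32272716 counted reads and the normoxia libraries 37278703, 29637189 and 29981208, each in the order of replicate number. The epithelial markers KRT5, TP63 and CDH1 were present in all libraries, with 3494 to 4424 reads on KRT5, whereas the basal keratin KRT14 had 1 read in 1 library and 0 in the other 5. Of 11 such markers 10 were tested, and 5 were higher and 4 lower under hypoxia (39.2% and 38.5% of all genes tested). The largest change was that of KRT6A, with 18, 28 and 49 reads under hypoxia against 695, 537 and 356 (log2-fold change -4.12). Of 12 markers of other cell types, the leukocyte marker PTPRC had 2 reads in 1 library and 0 elsewhere, and the T cell marker CD3E 1 read in 1 library. Only 5 of the 12 had enough reads to be tested, and 3 of them (CD14, COL1A1 and CDH5) were higher under hypoxia (39.2% of all genes tested). The endothelial markers PECAM1, with 5, 9 and 10 reads under hypoxia against 2, 0 and 0, and VWF, with 10, 9 and 4 against 0, 0 and 0, were too low to be tested. The sum of all 12 markers of other cell types was 56.3, 57.0 and 58.03 CPM under hypoxia and 37.8, 36.2 and 42.3 under normoxia (CPM are read counts scaled to library size with TMM), of which CD68 made up 66.8%. The part of such cells in the results was not tested. All 15 genes of a list of known hypoxia targets were higher in the libraries labelled hypoxia (adjusted p under 0.05, edgeR), so the labels and the data go together.

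Histones package DNA into nucleosomes: H2A, H2B, H3 and H4 form the core around which DNA is wound, and H1 binds the DNA between the cores. A cell that copies its genome needs new histones at once, and the clustered genes are transcribed in S phase under NPAT. Their mRNAs are unusual in that they end in a conserved stem-loop, bound by SLBP, in place of a poly(A) tail. When this ending is skipped, transcription runs on to a later signal and the mRNA receives a poly(A) tail, and such tailed histone mRNAs are known from differentiated cells and cells that have left the cell cycle. The labels name an mRNA-Seq kit, and whether RNA was chosen by its poly(A) tail is not given in the sources used here. A kit that reads poly(A) RNA records chiefly the tailed forms of these mRNAs, so the levels below cannot be taken as those of all histone mRNA.

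The stem-loop is shown for 4 genes that rose and for H4C8, the one H4 gene tested, to show how the H4 form differs. The sequences were read from GENCODE v29 transcripts matched by Entrez number, as RNA-sense DNA letters. Capitals mark the 16 bases of the stem-loop, and lower case the 5 bases on each side.
H2BC5: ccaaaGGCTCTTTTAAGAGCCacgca
H2AC6: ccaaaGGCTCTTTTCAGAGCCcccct
H2BC21: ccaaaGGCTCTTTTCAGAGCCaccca
H3C6: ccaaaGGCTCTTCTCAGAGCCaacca
H4C8: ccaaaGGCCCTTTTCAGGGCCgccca
All 57 genes matched at least 1 transcript, and 26 of them had a transcript with a histone stem-loop. Many transcripts in this annotation stop at the coding end, so the absence of a match says nothing of the gene. The form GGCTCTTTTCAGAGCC was the most frequent, in 13 genes of H2A, H2B and H3, and the forms found in H4 genes were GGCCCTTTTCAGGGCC in 4 genes and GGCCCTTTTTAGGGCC in 3. None of the H1 genes had a match. In several genes an annotated transcript runs far past the stem-loop, by 1729 bases in H2BC21, 1862 in H3C6, 1655 in H4C8 and 1128 in H2AC6. H2BC5 has 1 transcript that ends 39 bases after the stem-loop and another of 789 bases without it.

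Reads on the clustered genes were few. Summed over the 56 genes, they numbered 4463, 5738 and 4955 in the hypoxia libraries and 3194, 2397 and 2860 in the normoxia libraries, against 3432 to 4330 and 3776 to 4853 reads on H1-10 alone. Only 20 of the 57 genes, 19 of them clustered, passed edgeR's filter on low counts, and 15 genes had at most 10 reads over all 6 libraries. The 37 genes below the filter shared 84 to 170 reads per library. H1-3 was the gene with the fewest reads to pass, with 43 in all, and H2BC15 the one with the most that did not, with 61. The filter keeps a gene with enough reads in any 3 libraries. For 6 genes (H1-3, H2AC8, H2AC13, H2AC17, H3C10 and H4C8) all hypoxia libraries but not all normoxia libraries reached this cutoff. H2AC8 and H4C8 reached it in 2 normoxia libraries, H3C10 in 1 and H1-3, H2AC13 and H2AC17 in 0. For H2AC20 all normoxia libraries and 2 hypoxia libraries reached it.

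The reads were also unevenly divided. H2BC12 alone held 48.7% of the summed CPM of the clustered genes. The 8 clustered genes whose model in the deposited table is longer than 800 bases, H2BC12, H2BC5, H2BC21, H2BC4, H2BC18, H3C6, H3C4 and H4C15, held 71.1% of all reads on clustered genes, and the 48 with shorter models held 28.9%. These lengths were recovered from the ratio of the deposited counts to the deposited FPKM, and a model that ends near the stem-loop leaves reads further downstream uncounted: H2AC6 was counted over 519 bases although its longest annotated transcript has 1668. Per length, H1-10 had a mean of 81.0 FPKM over the 6 libraries, followed by H2BC12 at 66.0, H1-2 at 18.2, H2BC5 at 14.4 and H2AC6 at 12.5, and all H3 and H4 genes had means under that of H2BC8, 2.39 FPKM.

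**Figure D1:**
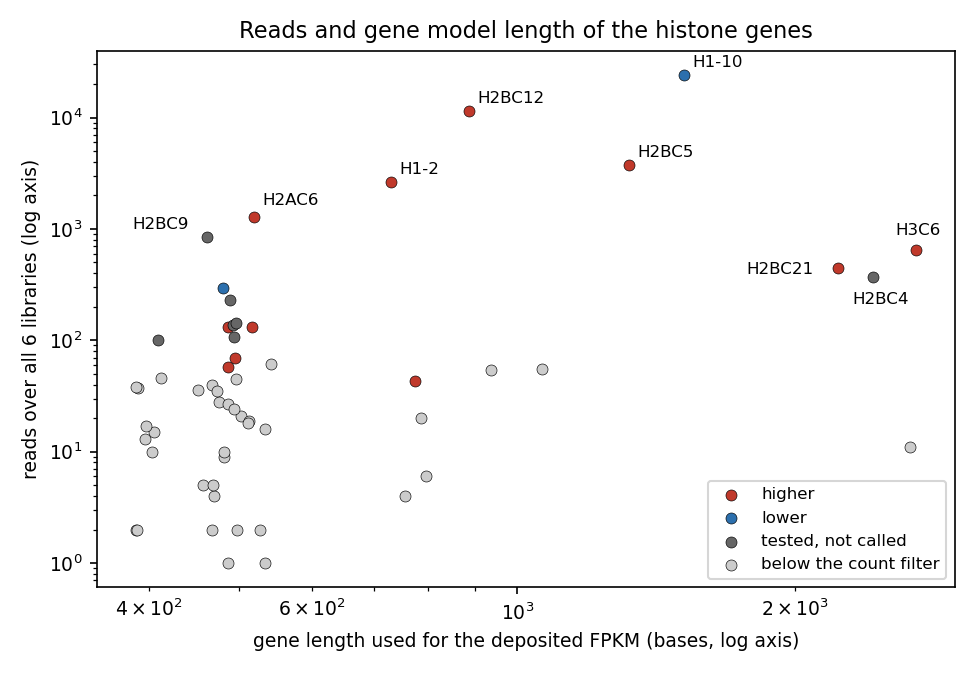
Reads on each of the 57 histone genes, summed over the 6 libraries (y, log axis), against the gene length used for the deposited FPKM (x, bases, log axis), coloured by the result of edgeR's test. Most genes sit between 400 and 600 bases with few reads, and H2BC12 and H2BC5, with longer models, stand above the other clustered genes.

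Under hypoxia, clustered histone genes of 4 families rose, H1-2, H2BC5, H2AC6 and H3C6 among them, and H2BC11 fell. With the threshold at 0.05 for p adjusted over 14255 genes (quasi-likelihood test of edgeR, Benjamini-Hochberg), 11 of the 20 genes rose, 2 fell and 7 did not pass the threshold. Over all genes tested, 77.8% were called, 39.2% as higher and 38.5% as lower. The CPM of the 2 conditions did not overlap for 12 genes that were higher and 2 that were lower, beside 40.6% and 39.9% of all genes tested. Without H1-10, the numbers were 11 higher, 1 lower and 7 that did not pass, of 19. Of the 11 that rose, 5 (H1-3, H2AC8, H2AC13, H2AC17 and H3C10) reached the filter cutoff in all hypoxia but not all normoxia libraries. Hypoxia is the condition in which they were high, so the filter in part fixed this count. Among the 14 tested genes outside the 6 named above for the filter, 6 rose, 2 fell and 6 did not pass. The number that rose was near the 39.2% of all genes tested. These 14 include H1-10, which lies outside the clusters, and H2AC20, which reached the cutoff in all normoxia but not all hypoxia libraries. Log2-fold changes above 1 were found for 9 of the genes that rose, the same 5 and 4 others (19.9% of all genes tested were called with such an increase), and nothing is read from this count. With at least 10 reads required in every library, 14 of the genes were tested and 7 rose. The median log2-fold change was 0.75 over the 20 genes and 0.79 over the 19, beside 0.023 over all genes tested, and these medians hold only for genes that passed the filter. Without the 6 genes that reached the filter cutoff in all hypoxia but not all normoxia libraries, the 13 other clustered genes had a median of 0.33. They still include H2AC20, at -0.42, the reverse case, so this exclusion is one-sided.

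**Figure D2:**
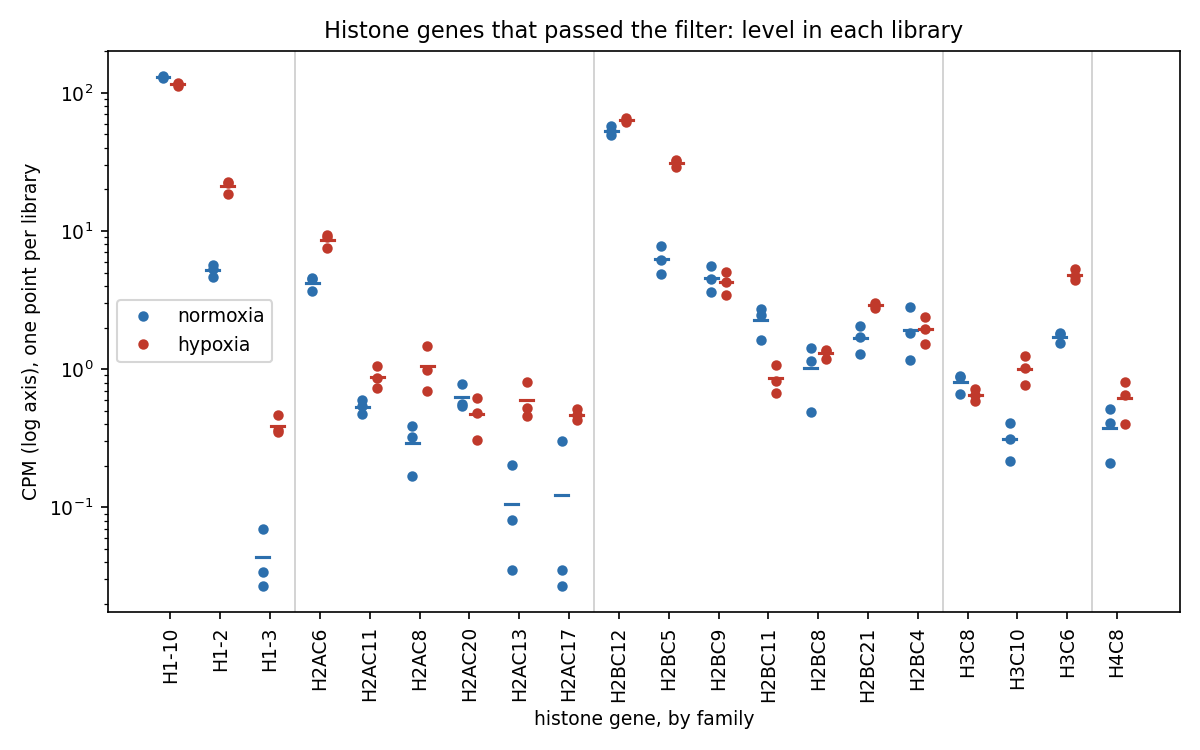
CPM (log axis) of the 20 histone genes that passed the filter, ordered by family, with 1 point per library and a line at the mean of each condition. H1-2, H2BC5, H2AC6 and H3C6 show separate groups of points, while those of H2BC9, H2BC4 and H3C8 overlap.

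Among the linker histones, H1-2, the clustered H1 gene with the most reads, had 563, 828 and 737 reads under hypoxia and 210, 133 and 157 under normoxia. All hypoxia libraries lay above all normoxia libraries, and the level rose 4.05-fold, from 5.20 ± 0.51 to 21.1 ± 2.35 CPM (SD, n = 3; log2-fold change 2.02, standard error 0.12, adjusted p = 6.41e-11 by edgeR). H1-3 had 11, 13 and 15 reads against 1, 2 and 1, a ratio of 9.29 with a counting interval of 3.35 to 35.8 (95%, Clopper-Pearson on the pooled counts, for counting error only; adjusted p = 0.000555 by edgeR). The other clustered linker genes, H1-1, H1-4 and H1-5, had too few reads to be tested.

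H1-10, a linker histone gene outside the clusters, had 3432, 4330 and 3856 reads under hypoxia and 4853, 3776 and 3783 under normoxia. Its CPM did not overlap between the conditions, and it fell by 0.17 on the log2 scale, from 130 ± 2.06 to 116 ± 3.25 CPM (SD, n = 3; standard error 0.051, adjusted p = 0.00704 by edgeR). This call was lost when at least 10 reads were required in every library (adjusted p = 0.111), a filter that moved the log2-fold changes of all shared genes up by a median of 0.077. An antisense transcript of H1-10, H1-10-AS1, had 14 to 49 reads per library, and the strand of the counting is not given in the sources used here.

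For H2A, 6 of 14 genes passed the filter, of which 4 rose (39.2% of all genes tested) and 2 did not pass the test. Of these 4, H2AC8, H2AC13 and H2AC17 reached the filter cutoff in all hypoxia but not all normoxia libraries. H2AC6 had 230, 335 and 305 reads under hypoxia and 169, 105 and 133 under normoxia, a 2.04-fold rise without overlap (log2-fold change 1.03, standard error 0.15, adjusted p = 6.13e-06 by edgeR). H2AC8, H2AC13 and H2AC17 rose from a few reads, from 5 to 12, 1 to 6 and 1 to 9 per normoxia library to 26 to 48, 16 to 26 and 13 to 19 per hypoxia library. Their log2-fold changes were 1.83, 2.45 and 1.97, with standard errors between 0.45 and 0.66 and adjusted p-values of 0.00128, 0.0011 and 0.0124. The call of H2AC17 was lost without normoxia replicate 1 (log2-fold change 1.42) or normoxia replicate 2 (1.57), and without normoxia replicate 3, which held 9 of its 11 normoxia reads, the log2-fold change was 3.77. For H2AC13 it was 3.199 without normoxia replicate 3. H2AC11, with 32, 27 and 28 reads against 20, 17 and 14, did not overlap between the conditions either, but its log2-fold change of 0.71 (standard error 0.37) did not pass the test (adjusted p = 0.0911 by edgeR). H2AC20 had 10 to 19 reads against 16 to 29 and an adjusted p of 0.359.

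The H2B genes held 74.7% of the reads on clustered genes, and 7 of 16 passed the filter. H2BC5 had the largest increase among histone genes with over 100 reads in every library, with 887, 1192 and 1061 reads under hypoxia and 182, 177 and 229 under normoxia. It rose 5.02-fold, from 6.27 ± 1.43 to 31.3 ± 1.95 CPM (SD, n = 3; log2-fold change 2.33, standard error 0.13, adjusted p = 2.22e-11 by edgeR). H2BC21 rose 1.73-fold, from 48, 49 and 61 reads to 92, 103 and 95 (adjusted p = 0.00603). H2BC12, the most abundant clustered gene, had 1943, 2435 and 1998 reads against 1965, 1421 and 1703, which overlap as counts but not as CPM. Its rise was small, 1.19-fold (log2-fold change 0.25, standard error 0.064, adjusted p = 0.00159 by edgeR).

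H2BC11 was the one clustered gene that fell. It had 25, 25 and 35 reads under hypoxia and 60, 70 and 81 under normoxia, 2.63-fold lower without overlap (log2-fold change -1.40, standard error 0.31, adjusted p = 0.000549 by edgeR). H2BC9, with 129 to 154 reads under hypoxia and 134 to 159 under normoxia, did not pass (log2-fold change -0.10, standard error 0.19, adjusted p = 0.644 by edgeR). H2BC4 and H2BC8 had adjusted p-values of 0.911 and 0.401, and in both the normoxia libraries spread more widely than the hypoxia libraries, from 14 to 53 reads on H2BC8. Within H2B the called genes thus ranged from a 5.02-fold rise to a 2.63-fold fall, the latter from 25 to 81 reads per library. None of the H2B genes with over 100 reads in every library (H2BC5, H2BC12 and H2BC9) was called lower. Of all genes tested, 38.5% were called lower, and nothing is read from so few genes. This cut also leaves out H2BC11.

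Of the H3 genes, 3 of 10 could be tested. H3C6 had 136, 196 and 153 reads under hypoxia and 58, 51 and 54 under normoxia, a 2.80-fold rise without overlap (log2-fold change 1.49, standard error 0.19, adjusted p = 1.86e-06 by edgeR). H3C10 rose 3.27-fold, from 8, 9 and 12 reads to 31, 46 and 25 (adjusted p = 0.00125). H3C8, with 22, 22 and 21 reads against 33, 19 and 26, did not pass (log2-fold change -0.32, standard error 0.36, adjusted p = 0.425). H4 was the family with the fewest reads, 29 to 73 per library over 11 genes, and only H4C8 was tested. It had 20, 30 and 13 reads under hypoxia and 19, 6 and 12 under normoxia, which overlap (log2-fold change 0.70, standard error 0.45, adjusted p = 0.167). H4C5 and H4C12, next in level, were below the filter, with 4 to 8 reads against 0 to 22 and 8 to 13 against 1 to 4.

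**Figure D3:**
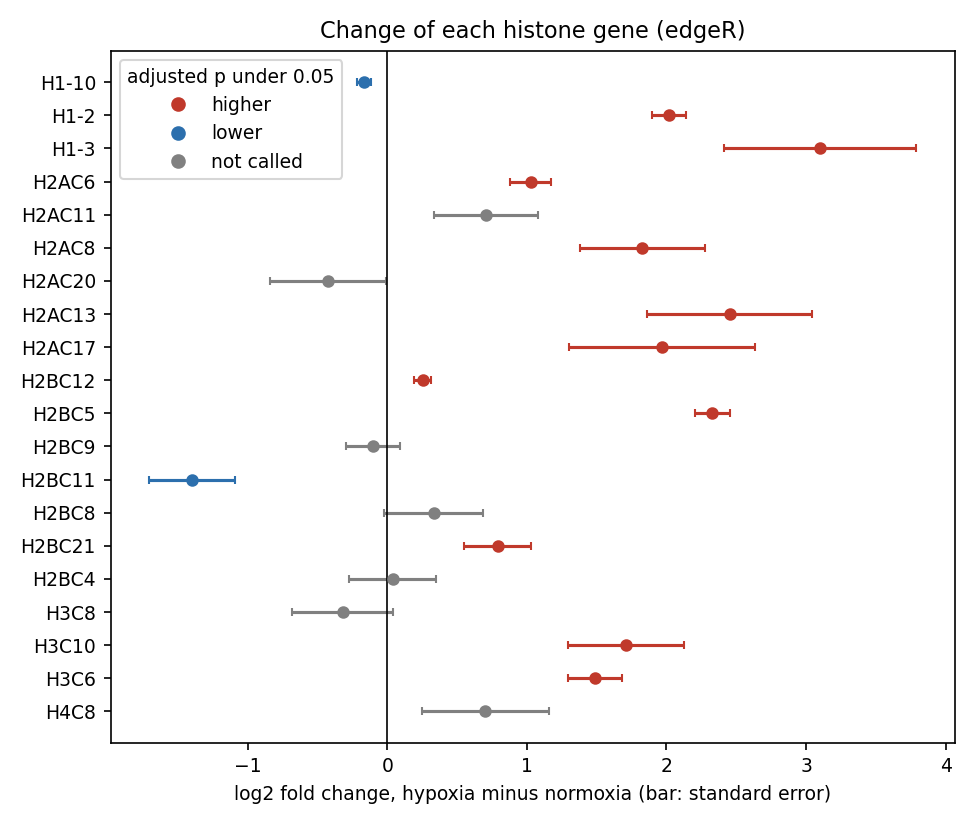
Log2-fold change of each tested histone gene, hypoxia minus normoxia, with its standard error, coloured by edgeR's call. H2BC5 at 2.33 and H1-2 at 2.02 stand out with small errors, H1-3 and H2AC13 lie higher with wide errors from few reads, and H2BC11 at -1.40 has the largest decrease.

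Summed by family, the CPM of H2A, H2B, H3 and the clustered H1 genes were higher under hypoxia. These sums are descriptive and were not tested. The 5 clustered H1 genes went from 5.43 ± 0.37 to 21.7 ± 2.40 CPM (SD, n = 3), a ratio of 3.99, and H1-2 alone made up 97.2% of this sum. With H1-10, which made up 90.1% of the sum, the 6 H1 genes had 131, 139 and 142 CPM under hypoxia and 136, 137 and 133 under normoxia, which overlap. For H2A the sum went from 6.49 ± 0.78 to 12.6 ± 0.93 CPM, a ratio of 1.95, which was 1.77 without H2AC6. For H3 it went from 3.73 ± 0.20 to 7.29 ± 0.49, also 1.95, but H3C6 made up 59.3% of the sum, and without it the ratio was 1.23 and the conditions overlapped. H2B went from 71.9 ± 6.55 to 108 ± 1.42 CPM, a log2 ratio of 0.58, and without H2BC12 the ratio was 2.38, with H2BC5 making up 59.8% of that sum. Without both, the other 14 H2B genes had 12.3 ± 2.15 and 12.9 ± 1.04 CPM, a ratio of 1.05 with overlap. For H2A, H2B, H3 and the clustered H1 genes every hypoxia library exceeded every normoxia library. The H4 libraries overlapped, at 1.87, 1.96 and 1.29 CPM under hypoxia and 1.61, 1.01 and 1.01 under normoxia. Over all 56 clustered genes the sum went from 88.8 ± 6.93 to 151 ± 4.30 CPM (SD, n = 3), a ratio of 1.70, which was 1.28 without H1-2 and H2BC5.

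**Figure D4:**
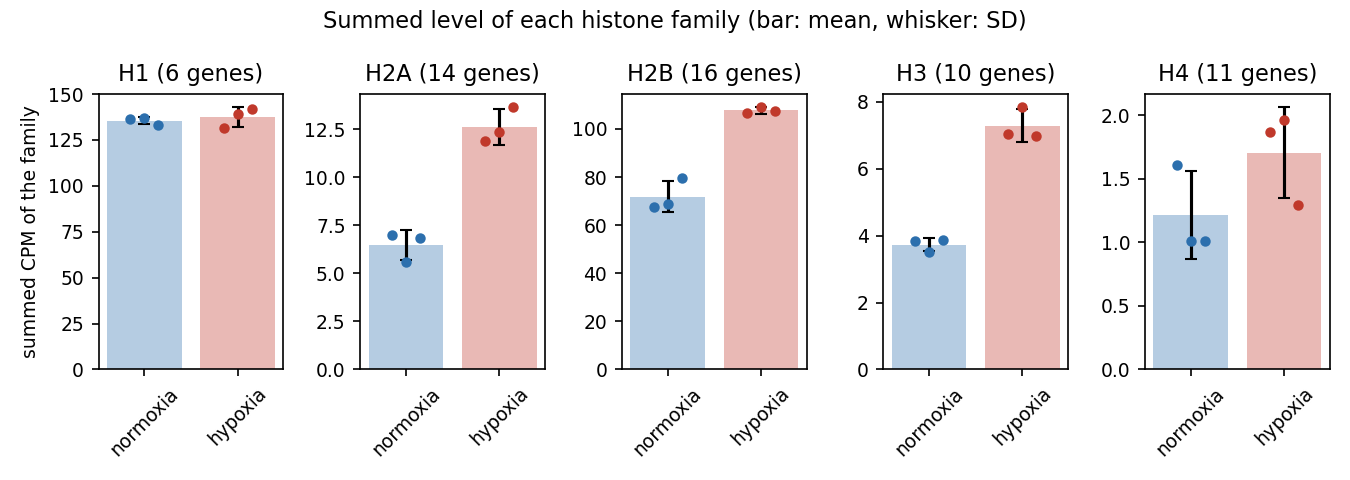
Summed CPM of the described genes of each histone family in every library, with the mean as a bar from 0 and the SD as a whisker, each family on its own axis. The conditions are apart for H2A, H2B and H3, and overlap for H4 and for H1, whose sum is mostly H1-10.

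Many H2A and H2B genes stand head to head and share the stretch of DNA between them as a promoter. By gene order and strand in RefSeq, 8 such pairs were found among the 57 genes, and both genes were tested in 4. H2AC6 rose by 1.03 on the log2 scale while its partner H2BC4 had 0.040 and did not pass. H2AC8 rose by 1.83 and H2BC8 had 0.33, which did not pass. H2BC21 rose by 0.79, while H2AC20 had -0.42 and did not pass. H2BC11 fell by 1.40, while H2AC11 had 0.71 and did not pass. In these 4 pairs 1 partner each was called (77.8% of all genes tested were), but with a minimum of 10 counts per library, and with limma on FPKM at either pseudocount, H2AC11 was called higher (adjusted p = 0.0331, 0.00152 and 0.00195) as well as H2BC11 lower. The difference between partners was not tested.

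RefSeq promoters (GRCh38.p14, 250 bases before to 50 after the gene start, 1 per gene) were matched for 53 of the 57 genes and searched on both strands. The octamer ATTTGCAT, the binding motif of POU2F1 and a known element of H2B promoters, was in 13 of 16 H2B, 9 of 13 H2A, 1 of 8 H3, 0 of 6 H1 and 0 of 10 H4 promoters, and in 1.80% of all 27305 promoters. In H2AC6, H2AC8, H2AC11, H2AC14, H2AC17 and H2AC20 it was the same site as in H2BC4, H2BC8, H2BC11, H2BC14, H2BC17 and H2BC21. The site of H3C4 was that of H2BC7. Such sites count for both genes, so the H2A and H3 numbers are not independent of the H2B number. A CCAAT box (CCAAT) was in 5 of 6 H1, 13 of 13 H2A, 16 of 16 H2B and 8 of 8 H3 promoters but in 2 of 10 H4 promoters, against 35.7% of all, and TATAAA in 36 of the 53, against 12.0% of all. The core of the hypoxia response element, ACGTG or GCGTG, was in 16 of the 53 and in 48.4% of all promoters. The octamer and its 10 flanking bases on each side are shown for H2B genes that fell, rose and did not pass, with the octamer in capitals.
H2BC11: tcttcaccttATTTGCATaagcgattct
H2BC12: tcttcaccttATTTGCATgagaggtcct
H2BC21: cggagccctaATTTGCATaaggtggtta
H2BC9: ttaagcacctATTTGCATaaaagaccta
These windows lie at chr6:27132825-27132852 (minus strand), chr6:27146887-27146914 (minus strand), chr1:149886711-149886738 (minus strand) and chr6:26251555-26251582 (plus strand), upstream of the gene start, and their octamers begin 47, 46, 46 and 49 bases before it. H2BC11, which fell, and H2BC12, which rose slightly, thus carry the octamer at almost the same distance. H2BC5, with the largest rise among the H2B genes, had no ATTTGCAT in its promoter window.

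Genes for making stem-loop histone mRNAs were mostly lower. Of 20 genes for histone mRNA transcription and 3′ processing, 15 fell, 2 rose and 3 did not pass (adjusted p under 0.05, edgeR), beside 38.5% of all genes tested that fell and 39.2% that rose, with a median log2-fold change of -0.53. SLBP, which binds the stem-loop, fell from 49.1 ± 2.15 to 21.7 ± 2.44 CPM (SD, n = 3; log2-fold change -1.18, standard error 0.081, adjusted p = 4.53e-10 by edgeR). LSM10, a protein of the U7 particle that guides the cut, fell by 1.32 on the log2 scale, and ZNF473, which joins this particle to SLBP, by 1.25. CPSF3, the nuclease, and its partner CPSF2 fell by 0.48 and 0.77, and CSTF2 by 1.61. NPAT, the transcriptional coactivator of the histone clusters, fell by 0.48, and CDK2, CCNE1 and CCNE2, the kinase and cyclins that act on it, by 0.95, 1.25 and 1.34. The 2 that rose were HINFP, a factor for H4 promoters, at 0.58 and CTIF, a translation factor, at 0.53. LSM11, SYMPK and MIF4GD did not pass, at -0.18, 0.074 and -0.089.

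Of 11 genes for histone mRNA decay, 4 rose, 6 fell and 1 did not pass, where 39.2% of all genes tested rose and 38.5% fell, so the number that rose was near that of all genes. XRN1, a 5′ to 3′ exonuclease, rose by 0.99 on the log2 scale, and TUT7 and TUT4, which add uridines to RNA ends, rose by 0.50 and 0.41. LSM1, of the complex that binds uridylated ends, fell by 0.99, ERI1, the exonuclease that trims the stem-loop, by 0.53 and UPF1, the helicase recruited to histone mRNA, by 0.42.

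Genes that carry new histones to DNA were mostly lower. Of 25 chaperone and import genes, 22 fell and 3 rose (38.5% and 39.2% of all genes tested), with a median log2-fold change of -0.80. CHAF1A and CHAF1B, subunits of the chromatin assembly factor that loads H3 and H4 behind the fork, fell by 0.97 and 1.18. ASF1A, ASF1B, NASP and HAT1, which handle H3 and H4 before that step, fell by 1.33, 1.02, 0.80 and 0.98. HIRA, of the complex that places the H3.3 variant outside S phase, fell by 1.07, and HJURP, the chaperone of CENPA, by 1.47. The 3 that rose were ATRX at 0.59, CABIN1 at 0.42 and NAP1L1, the most abundant of the list, at 0.32.

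Other histone genes, most of them variants made outside of replication, were also measured. The list is mixed, since H2AW and H2BU1 belong to a small histone cluster and are of the replication-dependent type, and H2AX also has a stem-loop mRNA made in S phase. Of 21 listed genes, 13 were in the table and 10 were tested, of which 7 fell and 2 rose (38.5% and 39.2% of all genes tested). Their difference from the clustered genes was not tested. H2AX, the variant that marks DNA breaks, fell from 118 ± 5.68 to 30.9 ± 2.97 CPM (SD, n = 3; log2-fold change -1.94, standard error 0.070, adjusted p = 1.69e-13 by edgeR). H2AZ1 and H2AZ2 fell by 1.21 and 0.38, H3-3B by 0.67 and the centromere histone CENPA by 1.46. H3-3A, which encodes the same protein as H3-3B, did not pass at 0.051. The 2 that rose were H2AW, at 1.78, and H2AJ, at 0.74.

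Replication and division genes fell almost as a whole. Of 42 S-phase genes, 41 fell and 0 rose (38.5% of all genes tested fell), with a median log2-fold change of -1.14, and CDT1 at -0.13 did not pass. Summed, they went from 6921 ± 313 to 3199 ± 201 CPM (SD, n = 3). MCM7, a subunit of the replicative helicase and the most abundant, fell by 1.11. The largest falls were those of GINS3, which helps to start the helicase, UHRF1, which links DNA methylation to replication, and CLSPN, a protein of the replication checkpoint, at 1.78, 1.66 and 1.61. All 22 genes of G2 and M phase fell, with a median of -1.22. In bulk RNA, a smaller share of cells in S phase and less mRNA per cell cannot be told apart.

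Of a list of 33 RNAs whose ends are not formed by ordinary polyadenylation, 2 nuclear RNAs, MALAT1 and NEAT1, had a row in the table analysed here, and both were higher (39.2% of all genes tested). MALAT1 rose from 47.0 ± 6.92 to 114 ± 12.0 CPM and NEAT1, which also has a tailed form, from 45.5 ± 9.01 to 207 ± 22.5 CPM (SD, n = 3; log2-fold changes 1.28 and 2.18, adjusted p = 5.95e-10 and 5.37e-12 by edgeR). Every hypoxia library lay above every normoxia library for both, and 2 genes do not stand for the list. How far the choice of RNA in the library preparation enters the change of the histone genes was not tested.

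Several genes are near-identical copies whose reads could have been divided or dropped. H2AC18 and H2AC19 had 17 reads together over the 6 libraries and H4C14 and H4C15 had 24, so no level can be given for them. Other clustered genes of a family share long stretches of coding sequence. How reads that fit several genes were treated is not given in the sources used here, so the division of reads among members is uncertain. Whether this differs with the length of the model was not tested.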

How the data were processed

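RNA was measured in 6 libraries of SCC25 cells, grouped by their titles into hypoxia and normoxia. The authors deposited counts, whole numbers of reads on 21776 genes without normalization, and FPKM. In 21775 genes the FPKM followed from the counts, 1 whole gene length and the library total (relative error at most 0.000121%), which also matched the columns of both tables. The submitters' processing notes name the mouse builds GRCm38 and mm10, whereas symbols and Entrez numbers are human. The aligner and counting tool are not given in the sources used here.

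Counts of all genes were tested with edgeR 4.0.16 (R 4.3.3; filterByExpr, TMM, quasi-likelihood F test, condition as the only term, Benjamini-Hochberg at 0.05). The standard error is the size of the log2-fold change divided by the square root of F. Family sums used CPM of the 57 genes described, untested. Of 58 genes that the symbol pattern matched, 1 is not reported here and is left out of all counts and sums. Alternatives were DESeq2 1.42.0 (size factors in edgeR, and its Wald test), other count filters, the replicate number as a block, libraries left out, other sets of members, and limma 3.58.1 on log2(FPKM + 1) or log2(FPKM + 0.1) where the mean reached 1 FPKM. On simulated counts with 200 genes changed by 2-fold, edgeR found 200 among 14099 tested genes, with 3.85% of its calls false.

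Genes given in full were the 3 with the highest mean FPKM per family, up to 6 of the largest increases and decreases (adjusted p under 0.05, no overlap, mean of at least 10 counts), H1-10, and near-identical copies. The other tested genes, H2AC17 and H2BC21 among them, lie outside this rule and were also given with reads or test results. Of the longer lists, the 3 largest changes and the most abundant genes could be named, and others named there were chosen after their values were seen. The length limit of 800 bases and the stem-loop, promoter and gene pair descriptions were added after values were seen. The members and lists were chosen with earlier results of these data known. Replicates differed by more than sampling noise (chi-square per gene 5.11 to 11.5).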

Additional observations from a re-analysis of the deposited data

How the results depend on the processing

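The number of histone genes higher under hypoxia was 11, between 7 (at least 10 counts in every library, where 14 were tested) and 14 (no filter, where H2BC15, H4C12 and H4C9, with 17 to 61 reads in all, were added), and 10 to 13 with one library left out. The number lower was 2, and 2 to 3 with one library left out. It was 1 with at least 10 counts in every library, 1 without H1-10, and 1 with a log2-fold change beyond 1 in size. With the replicate number as a block, the numbers were 11 and 2, as without it. Libraries with the same number did not deviate together (correlations 0.018, -0.069 and 0.0012), so no pairing by number was seen. With so few libraries per condition this cannot exclude that libraries of the same number were handled together.

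The log2 ratio of the summed H1 level was 0.021, and -0.0026 to 0.054 with one library left out, but 0.068 with library totals, 0.23 from FPKM and 2.00 without H1-10, the gene outside the clusters and the most abundant. For H2B it was 0.58, but 0.48 from FPKM, 1.25 without H2BC12, 0.22 without H2BC5 and 0.076 without both. For H3 it was 0.97, but 0.60 from FPKM, 1.18 without H3C8 and 0.30 without H3C6. The settings that leave out H2BC5 or H3C6 were chosen after seeing the data. The H4 ratio of 0.49 lay between 0.38 and 0.75 with one library left out. Of 246 results for single genes under the alternatives, 239 kept their side of the threshold. Of these, 235 also kept their direction (the exceptions were H2BC4 and H2BC9, neither called). Another 3 were weaker (H1-10, and H2AC17 under 2 settings) and 4 stronger (H2AC11 under 3 settings, and H4C8 under 1). H4C8 passed by limma on log2(FPKM + 1) (adjusted p = 0.0453) but not by limma on log2(FPKM + 0.1) (adjusted p = 0.0575). Counting error limits the genes with under 20 reads per library.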

Other observations

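Histone genes that the symbol pattern did not take in were also measured. H2BU1 had 8, 31 and 27 reads under hypoxia and 1, 5 and 6 under normoxia, below the filter, and H2BC12L and H3-7 had at most 1 read in any library. H3-5, a gene for an H3.3-like protein, fell by 1.05 on the log2 scale (standard error 0.29, adjusted p = 0.0034 by edgeR). MACROH2A1, the large H2A variant of silent chromatin, fell by 0.45 (adjusted p = 3.8e-07 by the same test).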
